A study of Mus musculus with 7 samples.

Results

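CD surface antigens are membrane proteins with a cluster of differentiation number, a naming system built on antibodies that recognise the surface of leukocytes and other cells. Many of them mark a lineage. The signalling chains and coreceptors of antigen receptors mark T and B cells, scavenger receptors and lectins mark macrophages and dendritic cells, and tetraspanins and complement inhibitors are found on most cells. Fat holds resident macrophages, lymphocytes, vessels and stromal cells beside its adipocytes, so such genes report on several cell types at once. Of 9294 genes with a value, 39 were examined whose symbol is Cd followed by a digit. Each came from a probe with exactly 1 gene symbol, entries named as pseudogenes were left out, and Cd3d, Cd36 and Cd74 were excluded by name. By main lineage, 6 were assigned to T cells, 5 to B cells, 14 to myeloid cells, 1 to endothelium and 12 to a broad group. The remaining gene, Cd2bp2, encodes an intracellular protein that binds the tail of CD2 and shares the name without being a surface antigen.

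Total RNA of male wild-type C57 mice was measured on Affymetrix arrays, with 4 arrays for paracardial fat (pCF), the depot beside the heart, and 3 for intra-abdominal fat (iVF). The labels name no treatment, and all samples share genotype, strain and sex. The sources used here give neither the age of the mice nor whether an array stands for 1 animal or a pool, so every p-value below measures the spread between these 7 samples. Values are log2 expression values as deposited, and every difference is pCF minus iVF on that scale, with its standard error (SE). Because tissue was measured in bulk, fewer cells of a type and less RNA per cell cannot be told apart.

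The array medians over all genes ran from 5.96 to 6.46. Values were capped, and pCF array 4 and iVF array 3 had a higher cap (19.93) than the other 5 arrays (19.81 to 19.84); the arrays of each cap are called an array set here, and no CD gene lay within 0.1 of it. Adipocyte markers, the check of the tissue label, were measured for 10 of 12 listed genes. Their median was 14.83, 14.68 and 16.20 on iVF arrays 1 to 3 but 6.08, 6.24, 9.44 and 9.70 on pCF arrays 1 to 4. Adiponectin (Adipoq) stood at 5.18 and 5.53 on pCF arrays 1 and 2, below the medians of 6.06 and 6.01 of those arrays. On these 2 arrays the defining markers of the labelled tissue were thus near the middle of all genes, and results without both are given below. At least 4 arrays held an identical value for 4 of the 39 CD genes (10.3%), against 203 of all genes (2.18%), so the spread of those 4 is not fully measured.

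The CD genes differed between the depots in both directions. Differences were above 0 in all 6 T cell genes and 4 of 5 B cell genes, and below 0 in 11 of 14 myeloid and 10 of 12 broad genes. By limma with Benjamini-Hochberg adjustment over all genes, 5 of 39 passed an adjusted p of 0.05 (12.8%, against 9.16% of all genes). One was higher in pCF, the T cell activation antigen Cd69 (2.56%, against 6.25% of all genes). In pCF 4 were lower (10.3%, against 2.91%), which were the capillary sialomucin Cd300lg, the tetraspanins Cd151 and Cd63, and endosialin, Cd248. Without adjustment 23 of 39 had a p under 0.05 (59.0%, against 24.4%). In 11 genes all pCF arrays lay above all iVF arrays (28.2%, against 18.0%) and in another 11 all lay below (28.2%, against 8.78%). The median difference over the 39 genes was -0.58, beside 0.13 over all genes, and the lineages lay on both sides of it, with a median of 3.27 for the T cell genes and -1.43 for the broad group. Without iVF array 3 the median over the 39 genes was 0.024, and in the 5 arrays of the lower cap it was -0.089. Scaling moved the all-gene median to 0.021 (quantile) or -0.0052 (centring on array medians). Cyclic loess gave 1 higher and 10 lower CD genes, beside 512 and 530 of all genes. The T cell genes tested stayed above 0 under every alternative.

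The calls rested on few arrays. Leaving out pCF array 1, pCF array 2 or iVF array 2 left 0 higher and 1 lower CD gene past the threshold, while the calls over all genes fell from 581 higher and 270 lower to 134 and 62, 255 and 83, and 114 and 71. Leaving out pCF array 3 left 0 and 2 CD genes (266 and 128 of all genes), and leaving out iVF array 1 gave 4 and 7 (378 and 274). Blocking on the array set, 2 CD genes were higher and 11 lower (1081 and 573 of all genes). Without both pCF arrays 1 and 2, limma passed 0 of the 39 (17 with an unadjusted p under 0.05). Over all genes that fit passed 0 higher and 1 lower (1751 with an unadjusted p under 0.05). Only Cd300lg passed whichever single array was left out.

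**Figure D1:**
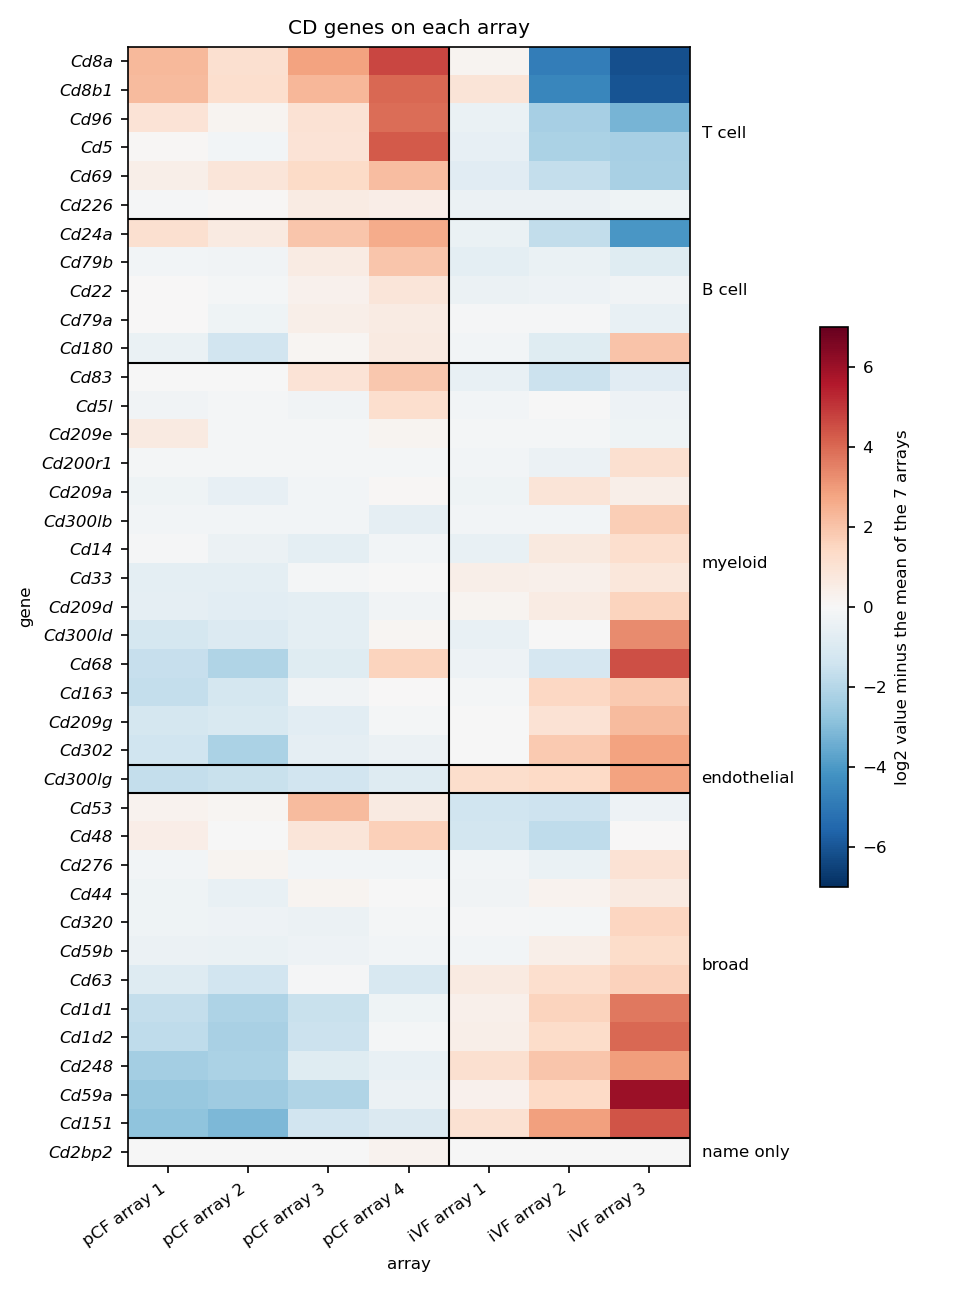
Each row is 1 CD gene and each column 1 array (4 pCF, 3 iVF); the colour is the log2 value minus that gene's mean over the 7 arrays, with genes grouped by lineage and ordered by their depot difference. The T cell rows are above their mean on pCF array 4 and below it on iVF arrays 2 and 3, while most myeloid and broad rows are highest on iVF array 3.

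**Figure D2:**
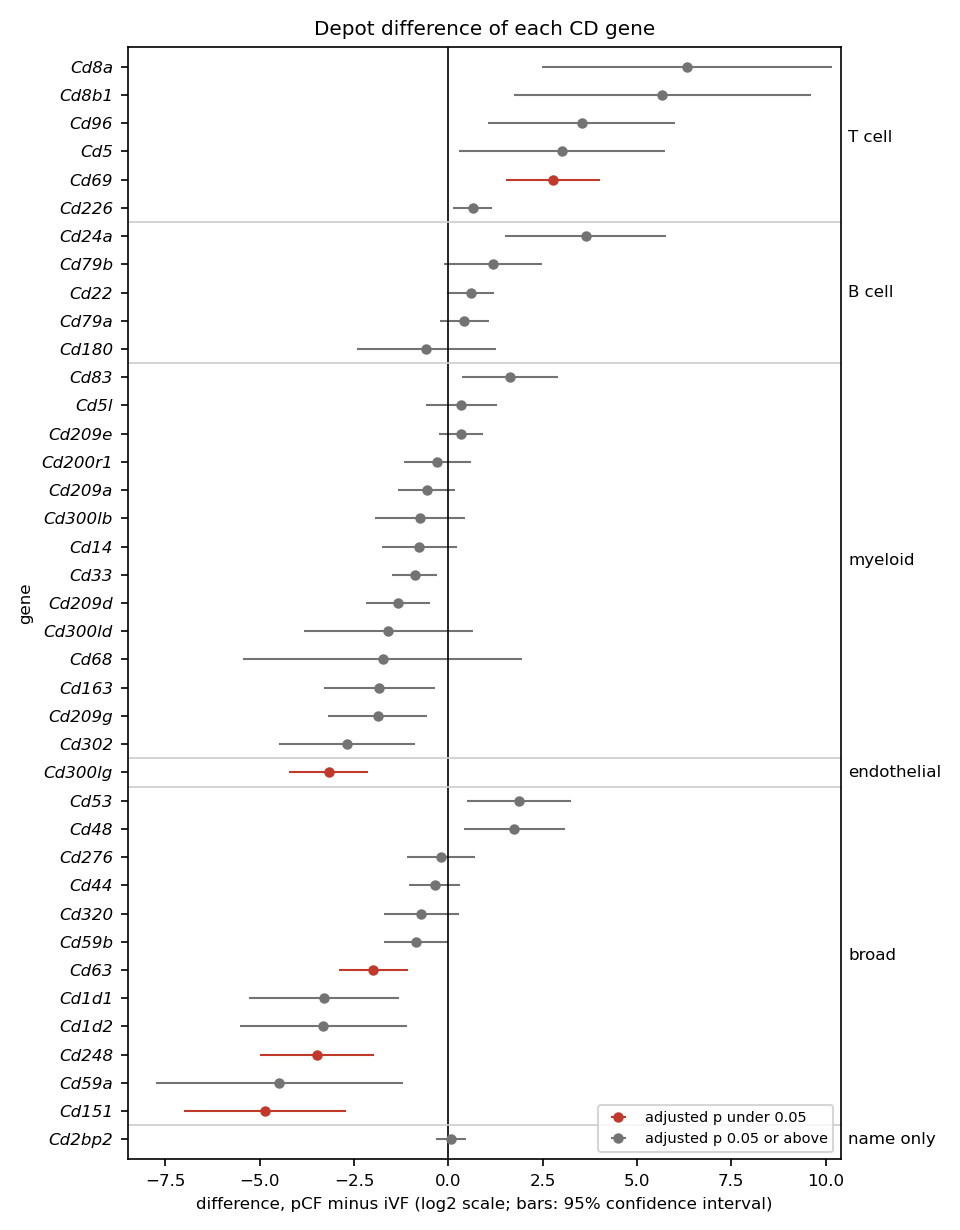
Points are the limma differences, pCF minus iVF, on the log2 scale (x axis) for each CD gene (y axis), bars are 95% confidence intervals, and red marks an adjusted p under 0.05. All 6 T cell genes lie above 0, 11 of 14 myeloid genes below 0, and the widest intervals belong to Cd8a, Cd8b1 and Cd68.

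The largest positive and the largest negative difference among the CD genes belonged to Cd8a and Cd151, and the bases before their gene starts are shown because these extremes also differ in base composition there. The sequences are the RefSeq windows of 250 bases before the start in GRCm38.p6, both on the plus strand, chr6:71373177-71373426 for Cd8a and chr7:141467112-141467361 for Cd151, the first of 2 entries for that gene. Capitals mark matches to the 5 motifs searched on both strands, which were the GC box GGGCGG, the TATA box TATAAA, the Runx site TGTGGT, the nuclear receptor half-site AGGTCA and the CCAAT box CCAAT.
Cd8a: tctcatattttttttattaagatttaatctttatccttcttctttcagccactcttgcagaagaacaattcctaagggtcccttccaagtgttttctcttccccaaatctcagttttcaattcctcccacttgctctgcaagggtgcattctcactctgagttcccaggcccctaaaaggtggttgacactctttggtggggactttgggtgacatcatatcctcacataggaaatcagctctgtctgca
Cd151: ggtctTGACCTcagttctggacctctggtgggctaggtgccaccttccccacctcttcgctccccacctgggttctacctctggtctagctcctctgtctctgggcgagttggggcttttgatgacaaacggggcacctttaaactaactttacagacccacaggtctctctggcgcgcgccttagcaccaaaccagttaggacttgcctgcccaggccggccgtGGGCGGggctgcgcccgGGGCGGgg
The Cd8a window held 0 CpG dinucleotides, a GC content of 42.8% and no match to the 5 motifs. The Cd151 window held 12 CpG dinucleotides, a GC content of 62.4%, 2 GC boxes that begin 25 and 8 bases before the start, and 1 half-site on the minus strand. Over 27025 promoters of this length, the median was 6 CpG dinucleotides and 52% GC, 32.9% held a GC box and 13.8% a half-site, while 13% held a TATA box, 14.2% a Runx site and 34.5% a CCAAT box. Of the 39 CD genes 27 had a window in the table, and 3 of these held a GC box (11.1%), 4 a TATA box, 6 a Runx site, 3 a half-site and 8 a CCAAT box. These matches describe the letters of the windows and were not tied to any measurement of binding.

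Every T cell gene had a positive difference and no overlap between the depots, although 1 of the 6 passed the test. Over all genes 18.0% had all pCF arrays above all iVF arrays. Cd69 encodes an early activation antigen that holds lymphocytes in tissue. Its values were 7.52, 7.95, 8.44 and 9.28 on pCF arrays 1 to 4 and 6.33, 5.44 and 4.83 on iVF arrays 1 to 3. The depots were separated by 1.19, between pCF array 1 and iVF array 1. Cd69 was 8.30 ± 0.75 (SD, n = 4) in pCF and 5.53 ± 0.76 (SD, n = 3) in iVF, a difference of 2.76 ± 0.52 (SE) with a limma adjusted p of 0.025. It passed in 12 of 20 alternative fits. With single arrays dropped it passed in 2 of 7, without pCF array 4 or iVF array 1, and its adjusted p reached 0.104 without iVF array 2.

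The 2 chains of the CD8 coreceptor, which binds MHC class I beside the T cell receptor, had the largest differences of all CD genes but fell short of the threshold. Cd8a stood at 13.98, 12.83, 14.53 and 16.39 on pCF arrays 1 to 4 and at 11.94, 6.87 and 5.55 on iVF arrays 1 to 3. Cd8b1 stood at 17.28, 16.25, 17.43 and 19.09 in pCF and at 15.98, 10.50 and 9.06 in iVF. In both genes iVF array 1 was far above the other iVF arrays and only 0.90 and 0.27 below the lowest pCF array. The differences were 6.32 ± 1.61 (SE, adjusted p = 0.059) for Cd8a and 5.67 ± 1.65 (adjusted p = 0.086) for Cd8b1, and without iVF array 1 they were 8.23 (adjusted p = 0.015) and 7.74 (0.012). The 2 genes lie next to each other, with 0 coding genes between them in the RefSeq order.

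The other T cell genes encode receptors that tune activation, and none of the 3 passed. Cd96, a receptor of T and NK cells, was measured at 9.85, 9.13, 9.90 and 12.83 in pCF and 8.45, 6.58 and 5.66 in iVF, a difference of 3.53 ± 1.04 (adjusted p = 0.088). Cd5, an inhibitory receptor of T cells, was measured at 7.60, 7.32, 8.49 and 11.81 in pCF and 6.93, 5.28 and 5.19 in iVF, a difference of 3.01 ± 1.14 (0.164). Both genes were highest on pCF array 4. Cd226, an activating receptor of T and NK cells, ran from 5.41 to 6.07 in pCF and from 5.10 to 5.16 in iVF, a difference of 0.64 ± 0.22 (0.130).

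Markers of T cells and of the thymus outside the 39 CD genes moved with this group. Of the T cell markers 3 of 8 were measured and 2 were higher, the adaptor Lat and Cd3d. Cd3d is itself a CD gene, which was left out of the 39 by name. The T cell markers had a summed log2 value of 24.6 to 32.9 on pCF arrays and 15.4 to 21.8 on iVF arrays. Of the thymocyte markers 3 of 7 were measured and 2 were higher (Rag2 and Dntt, genes of antigen receptor recombination), with sums of 30.3 to 38.1 and 16.0 to 25.2. Of the thymic epithelial markers 6 of 8 were measured and 4 were higher, with sums of 58.9 to 66.2 and 32.3 to 45.9. As with Cd8a and Cd8b1, iVF array 1 had the highest median of the iVF arrays in all 3 lists, at 7.55, 7.34 and 8.11. Past the threshold as well were Gzma, a granzyme and the single measured marker of 5 listed for NK cells, at 3.44 ± 0.60 (adjusted p = 0.020), and both measured cell cycle markers of 8 listed, Kif11 at 5.36 ± 0.86 and Rrm2 at 4.28 ± 0.79. The cell cycle sums were 21.9 to 26.6 in pCF and 11.9 to 17.2 in iVF. The part of these cells in the T cell CD genes was not tested. Both thymocytes and mature cytotoxic T cells carry CD8, as is known from other work.

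**Figure D3:**
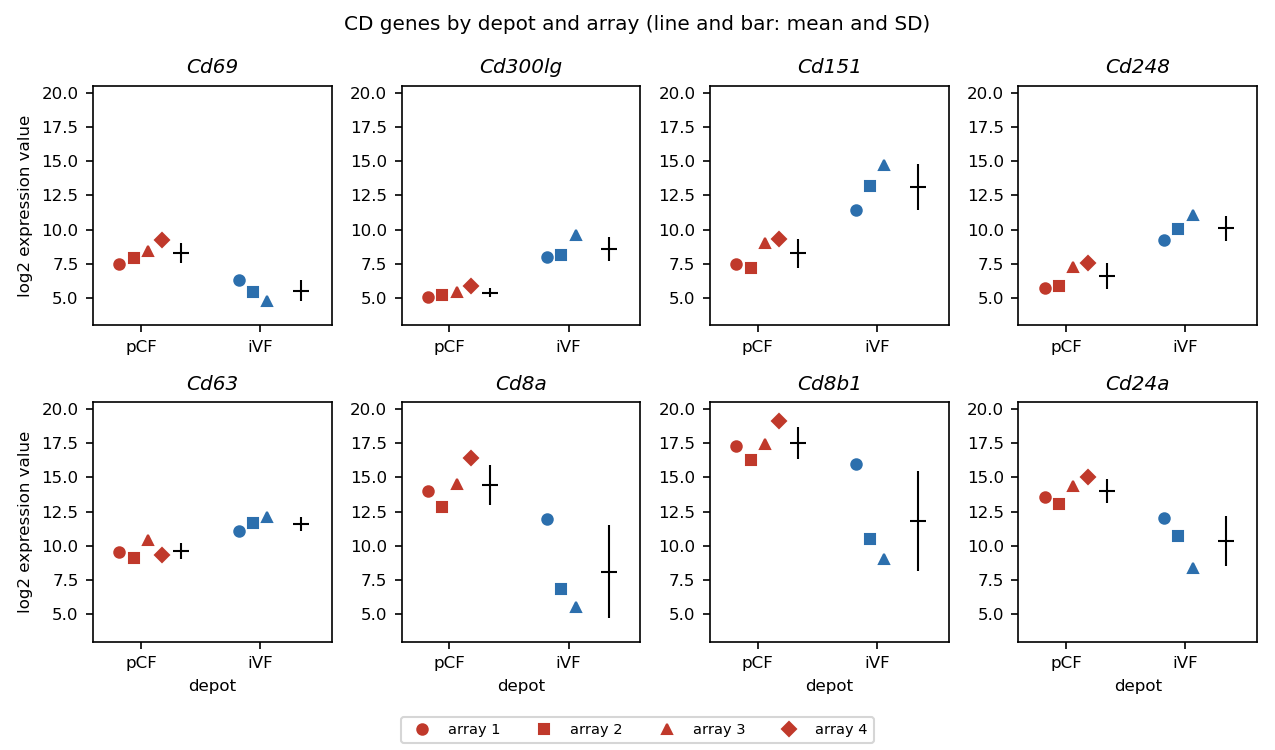
Log2 expression values (y axis) of the 5 CD genes past the threshold (Cd69, Cd300lg, Cd151, Cd248, Cd63) and of Cd8a, Cd8b1 and Cd24a by depot; each point is 1 array, the marker shape gives its number, and the line and bar give the mean and SD. The depots do not overlap in any of the 8 genes, and iVF array 1 is the iVF array nearest to pCF in all 8.

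By limma 0 of 5 B cell genes passed, and 1 had an unadjusted p under 0.05. Cd24a, a lipid-anchored antigen of immature B cells that thymocytes and many progenitors also carry, came nearest, with 13.57, 13.06, 14.39 and 15.02 in pCF and 11.99, 10.71 and 8.40 in iVF. The depots did not overlap, and the difference was 3.65 ± 0.89 (SE, limma adjusted p = 0.054), the next value outside the threshold after Cd63 (0.026) inside it. It passed in 5 of 20 alternatives. The signalling chains of the B cell receptor did not pass. Cd79b ran from 6.21 to 8.35 in pCF and from 5.56 to 5.97 in iVF, without overlap. Its difference was 1.19 ± 0.54 (0.244). Cd79a differed by 0.42 ± 0.27 (0.415) with overlapping depots. The inhibitory lectin Cd22 differed by 0.59 ± 0.26 (0.237), again without overlap. Cd180, a Toll-like receptor homologue, differed by -0.59 ± 0.77 (0.700), with its highest value, 9.08, on iVF array 3.

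B cell markers outside the 39 CD genes gave 0 of 4 measured genes past the limma threshold (1 at an unadjusted p under 0.05), with sums of 24.9 to 31.5 in pCF and 22.6 to 24.0 in iVF. Cd24a and Cd79b were both highest on pCF array 4. The B cell receptor genes Cd79a and Cd79b and the lectin Cd22 had differences of 0.42 to 1.19, beside 3.65 for Cd24a.

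Myeloid genes had mostly negative differences. By limma 0 of 14 passed, and 6 had an unadjusted p under 0.05. With the array set as a block 4 passed, all lower in pCF, which were Cd302 (adjusted p = 0.041), Cd209d (0.017), Cd209g (0.022) and Cd33 (0.033). That block gave 1081 higher and 573 lower of all genes. Of 14 genes 11 were below 0, and the median was -0.83. In 4 all pCF arrays lay below all iVF arrays (8.78% of all genes), against 1 with all above (18.0% of all genes). Without iVF array 3 the median was -0.40 and 5 of the 14 were above 0. The C-type lectin receptor Cd302 had the largest difference. It stood at 5.46, 4.69, 6.27 and 6.49 in pCF and 6.83, 8.74 and 9.68 in iVF, a difference of -2.69 ± 0.75 (SE, limma adjusted p = 0.077). Its depots were separated by 0.34, and it passed in 4 of 20 alternatives.

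Lectins of the CD209 family, pathogen receptors of dendritic cells and macrophages, had differences of both signs without passing. Whether they differ from each other in their depot difference was not tested. Cd209g differed by -1.88 ± 0.55 (adjusted p = 0.086), with 5.40, 5.55, 5.91 and 6.48 in pCF and 6.64, 7.65 and 8.85 in iVF. Cd209d differed by -1.33 ± 0.35 (0.065), with 5.35 to 5.83 in pCF and 6.26 to 7.64 in iVF. Cd209a differed by -0.58 ± 0.32 (0.339) and Cd209e by 0.34 ± 0.24 (0.470), and both overlapped between depots. These genes are close relatives that lie near each other, so their probes could share signal and each value is uncertain. An identical value, 5.14, stood on 4 arrays for Cd209e.

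Cd68 and Cd163 were both highest on iVF array 3. Cd68, a lysosomal glycoprotein of macrophages, was 7.44, 6.98, 8.21 and 10.63 in pCF and 8.70, 7.89 and 13.60 in iVF, a difference of -1.75 ± 1.54 (adjusted p = 0.550). Without iVF array 3 this difference was 0.024, so its direction rested on that array. The haemoglobin scavenger receptor Cd163 was 5.52, 5.95, 6.96 and 7.20 in pCF and 7.04 and 8.67 on iVF arrays 1 and 2, with iVF array 3 the highest, a difference of -1.83 ± 0.62 (0.126) that was -1.45 to -2.43 when arrays were left out in turn. Cd163 was low on pCF arrays 1 and 2, and pCF array 4 reached above iVF array 1.

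The other myeloid genes differed less or varied more. The sialic acid binding lectin Cd33 differed by -0.89 ± 0.25 (adjusted p = 0.078), with 5.51 to 6.19 in pCF and 6.55 to 6.98 in iVF. The lipopolysaccharide coreceptor Cd14 differed by -0.77 ± 0.42 (0.326). In the CD300 family of paired receptors, Cd300ld differed by -1.59 ± 0.94 (0.370) with 9.46 on iVF array 3, and Cd300lb by -0.75 ± 0.50 (0.436) with 6.25 there. Without that array these differences were -0.39 and -0.11. On iVF array 3 the CD200 receptor Cd200r1 was also highest, at 5.83, while all 4 pCF arrays held the identical value 4.60. Its difference was -0.30 ± 0.37 (0.683).

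Against the rest of the group ran Cd83, a maturation antigen of dendritic cells that thymic cells also carry. It was 6.21, 6.23, 7.17 and 8.12 in pCF and 5.74, 4.71 and 5.45 in iVF, without overlap, a difference of 1.63 ± 0.54 (adjusted p = 0.117). Cd5l, a protein secreted by macrophages, differed by 0.34 ± 0.39 (0.648), with its lowest value, 4.68, on iVF array 3. Its highest value, 6.24, was on pCF array 4, and without pCF array 4 the difference was -0.0019. Macrophage markers outside the 39 CD genes gave 0 of 6 measured genes past the limma threshold (1 at an unadjusted p under 0.05), with sums of 44.6 to 62.2 in pCF and 49.6 to 70.2 in iVF. Their median was highest on iVF array 3 (11.42), followed by pCF array 4 (9.92). These are the 2 arrays of the higher cap, and the part of the array set in the myeloid values was not tested.

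Cd300lg was the single endothelial CD gene and had the smallest adjusted p of the 39. It encodes a sialomucin of capillary endothelium. Its values were 5.09, 5.20, 5.42 and 5.86 on pCF arrays 1 to 4 and 7.99, 8.13 and 9.58 on iVF arrays 1 to 3. The depots were separated by 2.14, the widest gap of any CD gene. It was 5.39 ± 0.34 (SD, n = 4) in pCF and 8.57 ± 0.88 (SD, n = 3) in iVF, a difference of -3.18 ± 0.43 (SE, limma adjusted p = 0.012, 95% confidence interval -4.21 to -2.14). The difference was -2.82 within the 5 arrays of the lower cap and -3.73 within the other set, and its adjusted p was 0.0063 to 0.049 over the fits that left out 1 array.

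Vascular and adipocyte markers moved with Cd300lg. Blood endothelial markers were measured for 4 of 8 genes, 2 of them lower in pCF, with sums of 21.7 to 27.7 in pCF and 36.2 to 48.1 in iVF. Lymphatic and lymph node stromal markers were measured for 3 of 6 genes, 1 of them lower, with sums of 16.3 to 19.0 and 21.4 to 23.8. Adipocyte markers were lower for 7 of 10 genes, with sums of 60.8 to 103.6 and 144.1 to 158.8. The part of these cells in the Cd300lg difference was not tested.

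In the broad group of 12 genes, 3 were lower in pCF, the tetraspanins Cd151 and Cd63 and the stromal antigen Cd248, and 0 were higher. Of the rest, 7 were below 0 without passing and 2 leukocyte antigens were above it. Tetraspanins organise other membrane proteins in the plane of the membrane. Cd151, which binds laminin-binding integrins, had the most negative difference of all CD genes. It stood at 7.52, 7.18 and 9.33 on pCF arrays 1, 2 and 4, with array 3 just below array 4, and at 11.42, 13.21 and 14.75 on iVF arrays 1 to 3. Cd151 was 8.26 ± 1.06 (SD, n = 4) against 13.13 ± 1.67 (SD, n = 3), a difference of -4.86 ± 0.90 (SE, limma adjusted p = 0.024), and the highest pCF array lay 2.08 below the lowest iVF array. Its call ended without pCF array 1 (adjusted p = 0.074), 2 (0.065) or 3 (0.054) or iVF array 2 (0.097).

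Cd63, a tetraspanin of late endosomes and secretory vesicles, had a smaller difference. It was measured at 9.55, 9.14, 10.41 and 9.35 in pCF and 11.10, 11.63 and 12.08 in iVF. The means were 9.61 ± 0.56 (SD, n = 4) and 11.61 ± 0.49 (SD, n = 3), a difference of -1.99 ± 0.38 (adjusted p = 0.026). With single arrays dropped it passed in 2 of 7 fits, without pCF array 3 (0.033) or iVF array 1 (0.039). The leukocyte tetraspanin Cd53 differed in the opposite direction, by 1.87 ± 0.58 (0.101), with 11.59, 11.49, 13.60 and 11.96 in pCF and 9.96, 9.93 and 10.98 in iVF. Whether Cd53 differs from the other tetraspanins in its depot difference was not tested.

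Cd248, endosialin, is a receptor of pericytes and fibroblasts. It stood at 5.71, 5.92, 7.25 and 7.58 on pCF arrays and 9.21, 10.03 and 11.06 on iVF arrays, so that the depots were separated by 1.63. The means were 6.62 ± 0.94 (SD, n = 4) and 10.10 ± 0.93 (SD, n = 3), a difference of -3.48 ± 0.63 (adjusted p = 0.023). It was -3.33 within the 5 arrays of the lower cap and -3.48 within the other 2 arrays. The call ended without pCF array 1 (0.066), 2 (0.065) or 3 (0.0504) or iVF array 2 (0.089). Fibroblast markers were measured for 2 of 6 genes and neither passed, with sums of 10.5 to 12.6 in pCF and 13.1 to 17.1 in iVF.

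The complement inhibitors and the CD1d genes of the broad group were below 0 without passing, but the call depended on the fit. With the array set as a block Cd1d1 (limma adjusted p = 0.0098), Cd1d2 (0.0098) and Cd59a (0.015) passed. In the 5 arrays of the lower cap they passed at 0.034, 0.028 and 0.022. After cyclic loess Cd1d1 (0.026) and Cd1d2 (0.037) passed as well. Of 20 alternatives Cd1d1 passed in 9, Cd1d2 in 4 and Cd59a in 3, while Cd59b passed in 1 of 19. Cd59a, an inhibitor of the membrane attack complex, was 5.57, 5.70, 6.08 and 7.81 in pCF and 8.52, 9.62 and 14.19 in iVF, a difference of -4.49 ± 1.37 (adjusted p = 0.098). Its neighbour and close relative Cd59b differed by -0.86 ± 0.35 (0.196), and probes of this pair could share signal. Cd1d1, which encodes a molecule that presents lipids to NKT cells, and its near-identical copy Cd1d2 differed by -3.29 ± 0.83 (0.058) and -3.32 ± 0.93 (0.077). Their arrays ran in parallel, with 5.50 to 7.37 against 8.03 to 11.37 for Cd1d1 and 5.21 to 7.31 against 7.85 to 11.47 for Cd1d2, and which of these copies was measured is uncertain. In all 4 genes iVF array 3 was the highest array.

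Among the remaining broad genes Cd48 was above 0 and the others lay between -0.72 and -0.20. Cd48, a leukocyte ligand of CD2 and CD244, was 8.02, 7.57, 8.43 and 9.26 in pCF and 6.31, 5.79 and 7.61 in iVF, a difference of 1.75 ± 0.56 (adjusted p = 0.108), with pCF array 2 just below iVF array 3. It passed with the array set as a block (0.011), in the 5 arrays of the lower cap (0.040) and without iVF array 3 (0.049). The hyaluronan receptor Cd44, carried by most leukocytes and stromal cells, differed by -0.37 ± 0.28 (0.495), with a 95% confidence interval of -1.05 to 0.31. The transcobalamin receptor Cd320 differed by -0.72 ± 0.42 (0.364) and the B7 family member Cd276 by -0.20 ± 0.38 (0.792), both highest on iVF array 3. Cd2bp2, the intracellular protein, held the identical value 5.54 on 5 arrays and differed by 0.07 ± 0.17 (0.835).

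**Figure D4:**
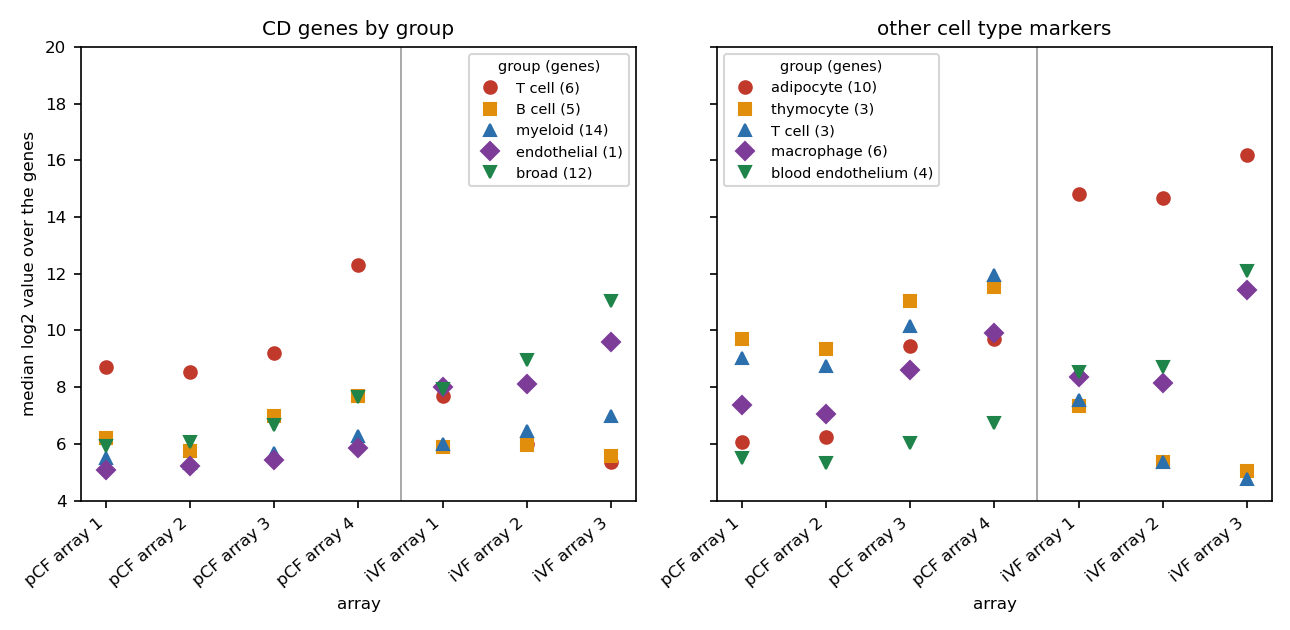
Median log2 value over the genes of a group (y axis) on each array (x axis), for the CD genes by lineage (left) and for markers of other cell types (right), with the number of genes in brackets. The T cell CD genes range from 5.37 on iVF array 3 to 12.32 on pCF array 4, the T cell and thymocyte markers are highest on the same pCF array and lowest on the same iVF array, and the broad CD genes and blood endothelial markers are highest on iVF array 3.

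Antigens that have a CD number but another gene symbol formed a second list for the same lineages. It shares Cdh5, Kdr, Csf1r, Ms4a1 and Epcam with the marker lists above, so it is not independent of them. Cdh5 and Kdr were the 2 blood endothelial markers counted there as lower. Of 84 antigens on this second list, 38 were measured, 1 was higher and 4 were lower past the threshold, all 5 of them endothelial. Over all genes 6.25% were higher and 2.91% lower. Among 6 measured endothelial genes, VE-cadherin (Cdh5, -7.05 ± 0.94, SE, limma adjusted p = 0.012), the adhesion molecule Mcam (-5.80 ± 0.67, 0.0090) and the VEGF receptor Kdr (-4.78 ± 0.81, 0.019) led the lower ones, with thrombomodulin (Thbd) at -2.68 ± 0.62 (0.046). The adhesion molecule Vcam1 was higher, at 10.51, 10.19, 11.88 and 12.28 in pCF and 7.09 and 8.32 on iVF arrays 2 and 3, with iVF array 1 between these and pCF, a difference of 3.08 ± 0.68 (0.039). Of these 6 genes, assigned to endothelium by hand, 5 were below 0 as Cd300lg was, and only Vcam1 was above. Which cells carried the Vcam1 signal was not tested.

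The leukocyte antigens of that second list gave no call. All 6 measured T cell genes had positive differences, of 0.31 to 3.06 with a median of 1.25. In 5 of them all pCF arrays lay above all iVF arrays, against 18.0% of all genes. The largest was the integrin chain Itgal, followed by Slamf1 (2.36 ± 0.67). All 4 B cell genes lay between 0.13 and 1.49. Of 10 myeloid genes 9 were below 0, with a median of -0.69, led by the receptor of macrophage growth factor Csf1r (-2.42 ± 0.76) and the integrin chain Itgam (-2.09 ± 0.62). Of 12 broad genes 7 were below 0, led by the lysosomal membrane protein Lamp1 (-2.62 ± 0.83), and the median was -0.10. By limma 0 of these passed in each lineage, while 5 T cell, 0 B cell, 4 myeloid and 7 broad genes had an unadjusted p under 0.05 (24.4% of all genes).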

How the data were processed

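The deposited table holds log2 values, 1 for each probe on each array. Per the submitters' processing notes, the tools were RMA and Affymetrix Expression Console, whose versions the sources used here do not give. Scanner files were not analysed here, so signal over background is unknown, and the number of arrays limits the precision. All 7 columns were matched by sample name. Of 11949 probes, 9352 had 1 symbol; symbols were updated through Entrez identifiers (RefSeq, GRCm38.p6, names and sequences only), and the probe with the highest mean was kept per gene, which gave 9294 genes. No member had a second probe, and no gene was filtered as dim.

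Depots were compared in R 4.3.3 with the two-sided moderated test of limma 3.58.1, without a trend, over all genes and 7 arrays, 4 against 3, with Benjamini-Hochberg adjustment, a threshold of 0.05 and intervals at 95%. The test was checked on made-up data with known changes. Tables and plots used Python 3.11.15, pandas 2.3.3 and matplotlib 3.10.9. Lineages were assigned by hand, and members, lists and tests were chosen with earlier results of these data known. The genes named were every member past the threshold, then the largest differences of each lineage. Up to 3 genes a lineage of the second list past the threshold were also named. The other members, and genes of that list below the threshold, were named after their values were seen. So were Thbd and Vcam1, which passed but lay beyond those 3. Replicate numbers 1 to 3 occur in both depots, but the labels do not say that they pair animals, so they were not taken as pairs. Deviations of same-numbered arrays from their depot means correlated at 0.048, 0.047 and -0.50. So few correlations cannot decide whether the arrays are paired. The closing section gives the effect of the 20 alternatives.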

Additional observations from a re-analysis of the deposited data

Results flagged for a closer look

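Among the 4 pCF arrays, 1 array stood far from the other 3 in 4 of the 39 genes. The rule flags about 1 in 20 groups of normally distributed values. It was not run over all genes, so no share over all genes stands beside this count. Cd5l reached 6.24 on pCF array 4, with 4.94 on the next array. Cd300lb was 3.89 on pCF array 4, below 4.32 on the others. Cd276 reached 6.24 on pCF array 2, above the next value of 5.85. Cd2bp2 was 5.83 on pCF array 4 and 5.54 on the others. In 2 of these genes, Cd300lb and Cd2bp2, several arrays held an identical value, which makes any departure from it stand out.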

How the results depend on the processing

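As reported, 1 CD gene was higher and 4 were lower, beside 581 and 270 of all genes. Dropping the dimmest 25% or 50% of genes gave 3 higher and 5 lower each time (34 and 25 members tested). Of the 6971 and 4647 genes tested in these fits, 653 and 630 were higher and 294 and 275 lower. Quantile normalization gave 8 lower (416 of all genes), centring on medians 3 higher and 7 lower (573 and 340), and cyclic loess 10 lower (530). Array weights gave 10 and 14 (2235 and 1379 of all genes) and the array set as a block 2 and 11 (1081 and 573). The 5 arrays of the lower cap gave 7 lower (316 of all genes). Leaving out both pCF arrays 1 and 2 gave 0 and 0 (0 and 1 of all genes). With the replicate block over arrays 1 to 3, limma passed 0 CD genes in either direction and 0 of all genes (21 CD genes and 2134 genes with an unadjusted p under 0.05). A trended robust fit, means over probes and current symbols each gave 1 and 4. Leaving out 1 array gave 0 to 4 higher and 1 to 7 lower, and a median over the members of -0.84 to 0.024, the last without iVF array 3. The causes were not tested.

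In 7 genes, none of them past the threshold in any fit, the sign changed. Cd2bp2 was -0.032 after quantile normalization, -0.067 centred, -0.0012 with the block and -0.0018 in the 5 arrays. Cd180 was 0.084 with weights and 0.044 without pCF arrays 1 and 2. With weights and in the 5 arrays, Cd200r1 was 0.20 and 0.17, Cd276 0.33 and 0.28, and Cd5l -0.12 and -0.089 (-0.0019 with the block). Cd300lb was 7.4e-05 in the 5 arrays. Over arrays left out, values ran from -0.0012 to 0.096 (Cd2bp2), -0.0019 to 0.48 (Cd5l), -1.18 to 0.25 (Cd180), -0.58 to 0.17 (Cd200r1), -0.50 to 0.25 (Cd276) and -2.83 to 0.024 (Cd68). Of 761 gene results over the alternatives, 651 kept direction and side, 30 lost the call, 60 gained it and 20 changed sign.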
